A study of Mus musculus and Rattus norvegicus with 2 samples.

Results

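H/ACA box small nucleolar RNAs (snoRNAs) were described in small RNA libraries of purified caput epididymal sperm, taken from the first segment of the epididymis, where maturing sperm arrive from the testis. The series holds 1 mouse library (C57BL/6, 2 months old) and 1 rat library (Sprague Dawley, a young adult of 450 g), both untreated, with RNA isolated by Trizol and the fraction of 18 to 45 nt put into an Illumina library. Each deposited table gives, per distinct sequence, a read count and 1 matched entry. Every sequence matched to an Rfam family named SNORA was taken as a member, which gave 1374 of 914516 distinct sequences in mouse and 2302 of 650877 in rat. These carried 7395 of 11760708 listed mouse reads and 16722 of 14652889 listed rat reads. Together they fell into 64 families, 59 seen in mouse, 57 in rat and 52 in both. With 1 library per species there was no replicate, so no test between species was possible, and species, strain, age and library cannot be told apart. Values in parentheses are 95% intervals that cover counting error only.

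An H/ACA snoRNA folds into 2 hairpins joined by a single-stranded hinge that holds the H box, ANANNA, and it ends in a tail with an ACA triplet 3 nt from the 3′ end. Internal loops of the hairpins pair with ribosomal RNA and place the uridine that the bound pseudouridine synthase, dyskerin, converts. Most of these RNAs are cut from introns of host genes, many of which code for ribosomal proteins and other parts of the translation machinery. The other large class of snoRNAs, the C/D box RNAs, guides methylation of ribose instead. Short fragments of H/ACA RNAs are known from many tissues, and some of them enter the small RNA pathways.

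The leading fragments are shown because they carry both findings described here, which families led in each library and which part of the RNA was read. They are the most abundant sequences of the leading families, copied from the deposited tables with U written as T, and capitals mark the ACA box (ATA in some RNAs) or the H box where the fragment reaches one.
SNORA44 mouse, 36 nt: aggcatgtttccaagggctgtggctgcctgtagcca
SNORA44 rat, 36 nt: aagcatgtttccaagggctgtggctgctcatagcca
SNORA42 mouse, 26 nt: cgtgctAGAGCAacccgtggccccga
SNORA42 rat, 23 nt: gcactgaagtgggtcgcACAgta
SNORA18 mouse, 39 nt: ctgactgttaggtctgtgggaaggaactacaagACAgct
SNORA18 rat, 23 nt: tgggaaggaactacaagACAgct
SNORA16 mouse, 25 nt: tgcaacattgtggaaaatgACAgct
SNORA40 mouse, 30 nt: tgggtttttgttgaactagtgggcaaaaac
SNORA43 mouse, 23 nt: gaatgatttgtagcctgACAaca
SNORA17 rat, 22 nt: gaatgatttgtagcctgACAat
SNORA51 mouse, 39 nt: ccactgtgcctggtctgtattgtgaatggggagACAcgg
SNORA3 rat, 30 nt: atcgagactagagtcacatcctgacatggc
SNORA81 rat, 23 nt: tcataagattcggtgcaATAagt
SNORA29 rat, 25 nt: ctctatatgaaatggctgaACAgaa
SNORA24 rat, 27 nt: agattctgacttgagcaagtaACAttc
SNORA57 rat, 26 nt: ttctatcctcagacgccggaACAcct

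Whole RNAs show where such fragments lie. In mouse Snora44 (GRCm38 chr4:132309941-132310069, plus strand, within the noncoding host gene Snhg12) the capitals mark the 36-nt mouse fragment at the 5′ end. In Gm26205, the annotated RNA that held most mouse SNORA42 reads (chr5:121205010-121205143, plus strand, within the ribosomal protein gene Rpl6), they mark the 26-nt mouse fragment across the hinge. In Snora81 (chr16:23110756-23110933, plus strand, within Eif4a2, which codes for a helicase of translation initiation) they mark the 23-nt rat fragment at the 3′ end, which matched this mouse RNA with 0 edits. Coordinates are those of GENCODE vM21 and not of the builds that the submitters named.
Snora44: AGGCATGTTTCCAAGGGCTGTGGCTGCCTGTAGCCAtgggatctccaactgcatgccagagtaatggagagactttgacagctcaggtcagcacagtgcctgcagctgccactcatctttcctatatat
Gm26205: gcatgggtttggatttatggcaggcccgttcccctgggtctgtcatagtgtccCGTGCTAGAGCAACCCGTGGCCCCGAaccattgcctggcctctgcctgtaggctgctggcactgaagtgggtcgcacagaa
Snora81: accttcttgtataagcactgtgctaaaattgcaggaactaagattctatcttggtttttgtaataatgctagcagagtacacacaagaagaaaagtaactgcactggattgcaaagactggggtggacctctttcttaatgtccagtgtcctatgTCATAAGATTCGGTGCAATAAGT

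H/ACA families took a larger share of the rat library than of the mouse library. They held 0.0629% of the mouse library (0.0615 to 0.0643), or 629 reads per 1000000 listed reads (rpm), and 0.114% of the rat library (0.112 to 0.116), or 1141 rpm, a log2 ratio of rat over mouse of 0.86 (0.82 to 0.90) or 1.81-fold. Most of that difference lay in a single family, SNORA3: without it and SNORA44, the families with most reads in rat and in mouse, the log2 ratio was 0.25. Reads with no mismatch to their entry were 69.0% of H/ACA reads in mouse (5105) and 62.6% in rat (10469). Divided by each library's reads without mismatch, and not by all listed reads, they gave 1.64. With the reads that carry H/ACA sequence under entries of other names, described further down, the log2 ratio was 0.67. C/D box families were lower in rat. Without SNORD58, a C/D family that alone held 4021449 mouse reads and 0 rat reads and was kept apart, they had 20688 rpm in mouse and 2226 rpm in rat, a log2 ratio of -3.22 (-3.23 to -3.20) and 9.29-fold lower. H/ACA families made up 2.70% of mouse and 26.4% of rat snoRNA reads outside SNORD58, and scaling to those snoRNA reads instead raised every log2 ratio by 2.43. Small Cajal body RNAs and telomerase RNA did not follow the SNORA families. Small Cajal body RNAs guide modification of spliceosomal RNA, and all SCARNA families were summed, whichever box type they have. They had 2927 mouse and 3083 rat reads, a log2 ratio of -0.24 (-0.32 to -0.17). Telomerase RNA, which has an H/ACA domain, had 238 mouse and 8 rat reads, a log2 ratio of -5.21 (-6.44 to -4.21). In a library made from many cells, fewer cells of a type and less RNA per cell cannot be told apart.

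A few families held most H/ACA reads in each library. The leading 10 held 78.6% in mouse and 81.1% in rat, and 14 mouse and 19 rat families had under 10 reads. The 10 families with most reads in mouse were SNORA44, SNORA42, SNORA74, SNORA16, SNORA40, SNORA17, SNORA43, SNORA18, SNORA51 and SNORA50. In rat they were SNORA3, SNORA44, SNORA81, SNORA29, SNORA18, SNORA42, SNORA24, SNORA57, SNORA17 and SNORA5. Only 4 families stood in both lists, SNORA44, SNORA42, SNORA18 and SNORA17. Per length of the RNA, which ran from 122 to 205 nt, all 10 of each list stayed among the leading 10 of their library.

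**Figure D1:**
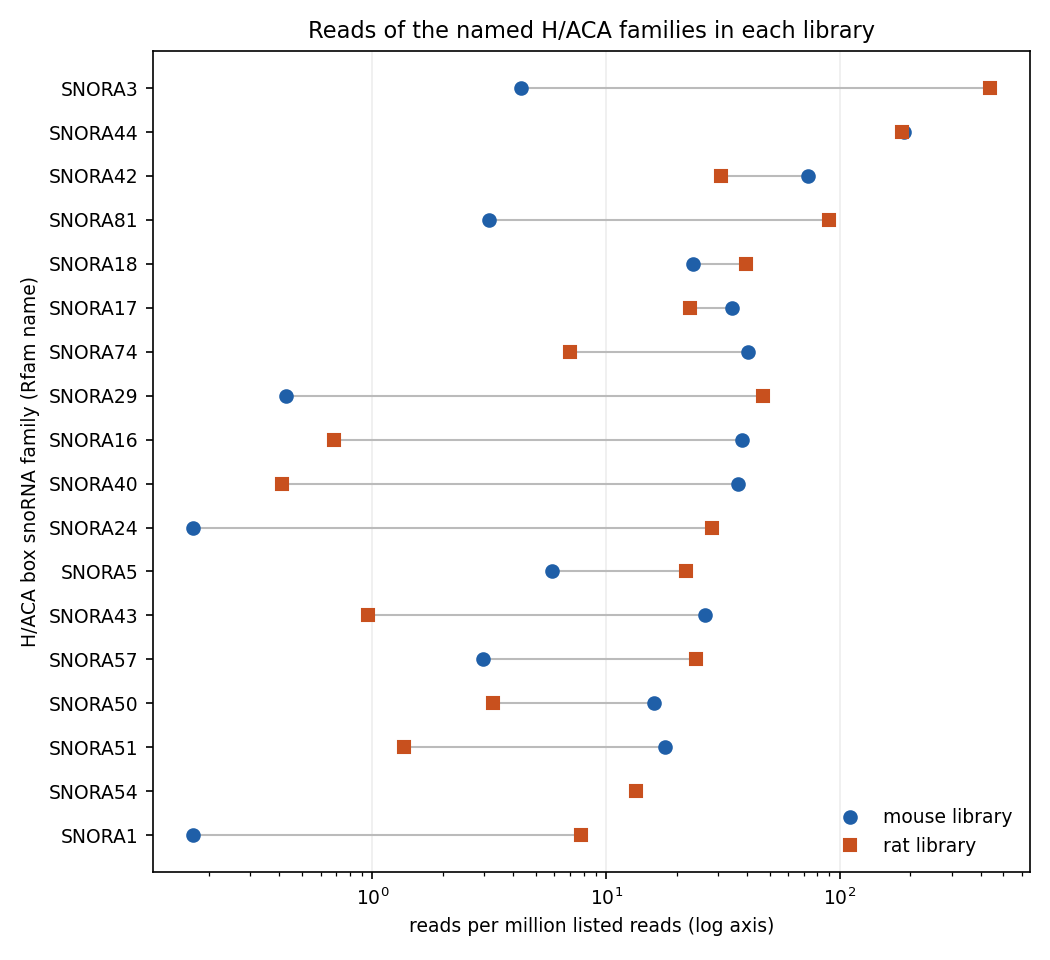
Reads per 1000000 listed reads (log axis) of the 18 named H/ACA families, with a circle for the mouse library and a square for the rat library. SNORA44 lies at 188 and 184, SNORA3 at 4.34 in mouse and 437 in rat, and SNORA54, with 0 mouse reads, has a rat point only.

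Of the 64 families, 32 had reads in both libraries and at least 100 over both and were compared. Of these, 15 were at least 2-fold higher in rat and 9 at least 2-fold lower, with a median log2 ratio of 0.89 and a range from -6.48 to 7.38. Over all 91 Rfam families compared in the same way, the H/ACA families included, 33% were at least 2-fold higher in rat and 37.4% at least 2-fold lower, with a median of -0.51. Over the 59 families other than H/ACA the shares were 25.4% and 42.4%, with a median of -0.73. The H/ACA shares were 46.9% and 28.1%. The 26 C/D families compared, to which SNORD58 with its 0 rat reads did not belong, were at least 2-fold higher in 15.4% and at least 2-fold lower in 61.5%, with a median of -2.10. Across the 32 families, Spearman's rho between mouse and rat reads was -0.24, a description over families that share 2 libraries. The minimum was set on the sum of both libraries and left out families low in both, which by itself lowers rho. No conclusion on the likeness of the libraries is therefore drawn from it. Just inside the minimum of 100 reads lay SNORA21 (42 mouse and 69 rat reads) and SNORA1 (2 and 114). Just outside lay SNORA65 (81 and 1) and SNORA75 (78 and 0).

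**Figure D2:**
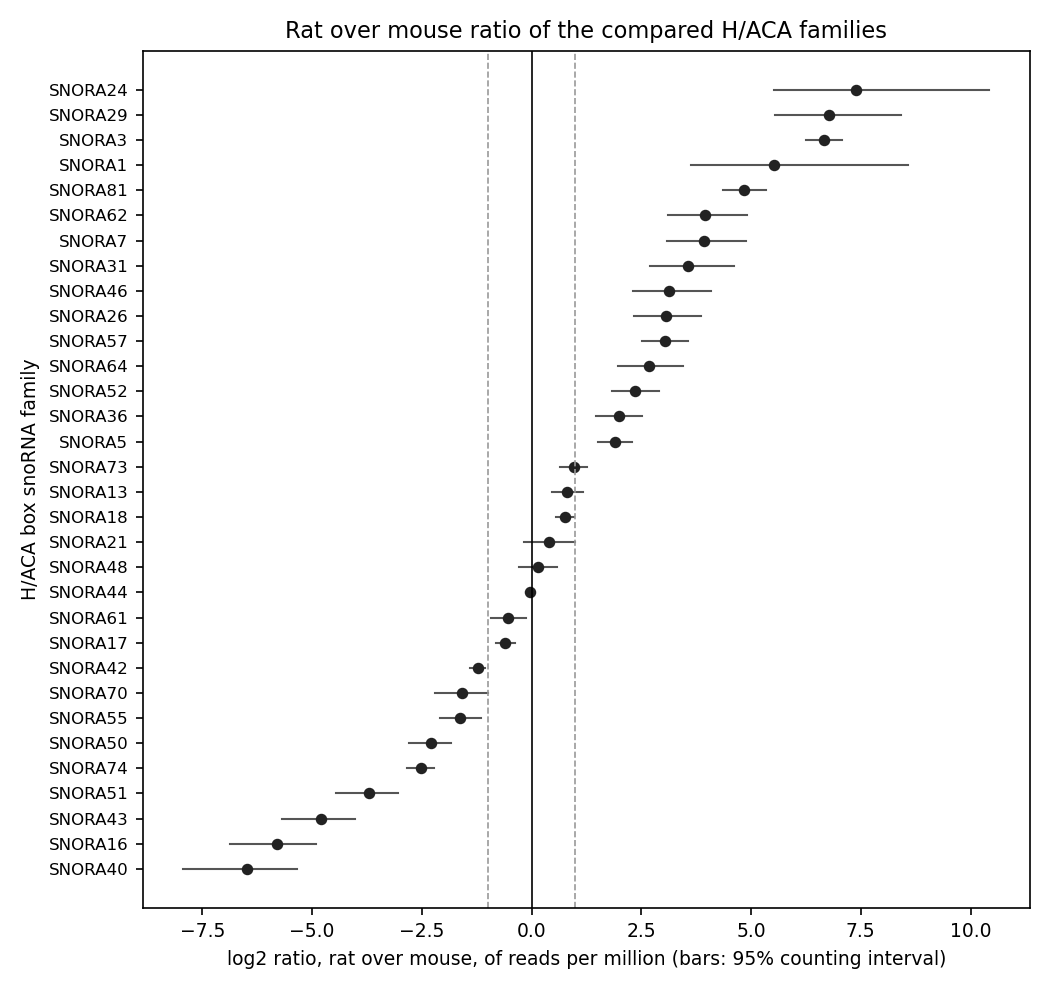
Log2 ratio of rat over mouse, in rpm, for the 32 compared families in order of the ratio. Bars are 95% counting intervals, and dashed lines mark a 2-fold difference; 15 families lie at or beyond it on the rat side and 9 on the mouse side.

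SNORA3, SNORA81, SNORA29, SNORA24 and SNORA1 had the highest ratios. SNORA3 had 51 mouse and 6407 rat reads, a log2 ratio of 6.66 (6.26 to 7.08). Most of its rat reads lay closest to Gm24888 in the ribosomal protein gene Rpl27a, and 22 mouse reads lay on Gm24698 in Champ1. SNORA81, from Eif4a2, had 37 and 1318 reads, a log2 ratio of 4.84 (4.37 to 5.35). SNORA29, whose rat reads lay closest to Gm26130 in Tcp1, the gene of a chaperonin subunit, had 5 and 684 reads, at 6.78 (5.55 to 8.41). SNORA24, whose rat reads lay closest to Snora24 in the noncoding host gene Snhg8, had 2 and 415 reads, at 7.38 (5.52 to 10.4). Of its 2 mouse reads, 1 lay on the minus strand and 1 on a different annotated RNA, Gm26458 within Zpbp. The mouse counts of SNORA81, SNORA29 and SNORA24 depended on the name of the entry. In mouse, 97 further reads of SNORA81, 65 of SNORA29 and 93 of SNORA24 were listed under GenBank or other names. With them the log2 ratios came to 2.99, 2.98 and 1.81, all still higher in rat. Without mismatches only 4 SNORA81 reads remained in each library, since the leading rat sequence has 1 mismatch to its entry. Over each library's reads without mismatch this gave 0.61 (-1.82 to 3.03). SNORA1, from Taf1d, which codes for a subunit of an initiation factor of RNA polymerase I, had 2 and 114 reads, at 5.52 (3.63 to 8.58). SNORA57 had 35 and 356 reads, at 3.03 (2.53 to 3.57), and its direction turned to -2.35 among reads without mismatch, where only 4 rat reads remained. SNORA5 had 69 and 320 reads, at 1.90 (1.52 to 2.29). SNORA54, from Nap1l4, had 197 rat reads and 0 mouse reads, at least 52.7-fold higher in rat when the mouse count is taken at its limit of 3.

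SNORA40, SNORA16, SNORA43, SNORA51 and SNORA74 had the lowest ratios. SNORA40, whose mouse RNA AF357399 lies in the ribosomal protein gene Rps16, had 431 mouse and 6 rat reads, a log2 ratio of -6.48 (-7.94 to -5.35). Of the 6 rat reads, 2 lay on the minus strand, 1 matched without mismatch and 0 were placed on an annotated snoRNA. With 16 more rat reads under other names the ratio was -4.62. SNORA16 had 447 and 10 reads, at -5.80 (-6.87 to -4.91). SNORA51, from Nop56, the gene of a core protein of C/D box particles, had 209 and 20 reads, at -3.70 (-4.44 to -3.04). Its direction was not kept among reads without mismatch, 5 in mouse and 9 in rat, or among distinct sequences, 20 in mouse and 16 in rat. Both were divided by each library's total of the same kind. SNORA74 had 476 and 103 reads, at -2.53 (-2.85 to -2.22), and 430 more mouse reads lay under other names, which moved it to -3.45. It lay closer to 0 at 18 to 45 nt (199 and 89 reads, -1.56), in distinct sequences (-0.44) and as a share of snoRNA reads, at -0.10 (-0.42 to 0.21). SNORA50 had 189 and 48 reads, at -2.29 (-2.78 to -1.83), a direction that turned to 0.13 as a share of snoRNA reads, and stood at -0.05 (-0.87 to 0.74) in distinct sequences. The 7 families seen in mouse alone had up to 78 reads (SNORA75, at least 32.4-fold lower in rat), and the 5 seen in rat alone had up to the 197 of SNORA54.

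Other leading families differed less. SNORA44 had 2215 mouse and 2692 rat reads, that is 188 and 184 rpm, a log2 ratio of -0.04 (-0.12 to 0.05) that came to 2.39 as a share of snoRNA reads and to 1.84 in distinct sequences. SNORA18, from Taf1d, had 276 and 581 reads, at 0.76 (0.55 to 0.97), which came to 0.07 (-0.19 to 0.34) without the leading sequence of each library. SNORA42 had 855 and 455 reads, at -1.23 (-1.39 to -1.06), and was higher in rat, at 1.20, as a share of snoRNA reads and, at 0.79, in distinct sequences.

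Families whose mouse RNAs lie in 1 host gene had unlike ratios. Mouse Snhg12 holds the RNAs of SNORA16, SNORA44 and SNORA61 in that order along 1 strand of chromosome 4. These families had 447, 2215 and 116 reads in mouse and 10, 2692 and 100 in rat, with log2 ratios of -5.80, -0.04 and -0.53 (-0.93 to -0.13). In rat, most SNORA44 reads lay closest to Gm22622, an annotated copy on chromosome 6, and 80.4% of SNORA61 sense reads closest to Gm22304 on chromosome 9. Which rat gene they came from is therefore not given here. Taf1d holds the RNAs of SNORA18, SNORA8 and SNORA1, which had 276, 0 and 2 mouse reads and 581, 7 and 114 rat reads. In Eif4a2, SNORA81 stood at 37 and 1318 reads while SNORA63 had 8 and 2. Under other names SNORA81 had a further 97 mouse and 4 rat reads, and SNORA63 a further 63 and 59. Of the 58 families with a leading annotated RNA in mouse, 52 had it inside a host gene.

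The names SNORA17 and SNORA43 did not mark the same RNA in both libraries. The mouse RNA Snora17 (chr2:26639190-26639321, minus strand) received 282 of the 309 sense reads named SNORA43 in mouse and 0 of the 230 named SNORA17. In rat it received 128 of 256 SNORA17 reads and 8 of 14 SNORA43 reads. The mouse SNORA43 and rat SNORA17 leading sequences begin with the same run of bases. By name, SNORA43 had 310 mouse and 14 rat reads, a log2 ratio of -4.79 (-5.67 to -4.02), and SNORA17 had 406 and 335, at -0.59 (-0.81 to -0.38). Counted on the RNA, Snora17 had 282 mouse and 136 rat reads, at -1.37 (-1.68 to -1.07), and both names together gave -1.35 (-1.54 to -1.17). SNORA17 in mouse also had many weak matches. Its reads were spread over 150 entries, 176 of 406 lay on the minus strand, 40 matched without mismatch, and 63.8% of the placed ones were 18 nt long.

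Sense reads were placed on mouse snoRNAs of GENCODE vM21 to find the part of the RNA that was read, which succeeded for 6974 of 7025 mouse and 15940 of 16516 rat reads. Rat positions are those of the aligned mouse RNA, since no rat annotation was used here. A read was given to the hairpin that holds its midpoint. Summed over reads, the 3′ hairpin held 46.5% of the 6853 reads with a hairpin in mouse (45.4 to 47.7) and 42.9% of the 14564 in rat (42.1 to 43.7). Most families, however, were read mainly from the 3′ hairpin. Among families with at least 20 such reads, 23 of 29 in mouse and 21 of 32 in rat had over 50% of them there, with medians of 86.2% and 87.6%. The sum over reads was set by 2 families, SNORA44 and SNORA3: without them 68.3% of mouse and 84.3% of rat reads lay on the 3′ hairpin.

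By read counts, the hairpin with more reads was the same in mouse and rat wherever both had enough reads. Of the 18 families with 20 such reads in both libraries, 13 lay mainly on the 3′ hairpin in both, 5 mainly on the 5′ hairpin in both, and 0 differed. With the middle of the RNA as the border, SNORA42 differed. With only reads wholly on 1 side of the hinge, SNORA36 and SNORA74 did. SNORA57 had 100% of 31 mouse and 99.7% of 355 rat reads on the 3′ hairpin, SNORA52 100% of 35 and 94.2% of 224, and SNORA55 93.9% of 131 and 100% of 56. SNORA18 had 83.3% of 276 mouse and 98.8% of 580 rat reads there. On the 5′ side, SNORA44 had 1.76% of 2211 mouse and 8.72% of 2568 rat reads on the 3′ hairpin, and SNORA50 had 3.17% of 189 and 34.4% of 32. SNORA3 had 1.20% of 4920 rat reads and 30.4% of 46 mouse reads on the 3′ hairpin. SNORA36 lay close to even, at 42.9% of 28 and 46.5% of 187. SNORA17 counted on the 3′ side in both, at 56.1% and 85.7%, although its reads came from different RNAs. The interval included 50% for SNORA36 in both libraries and for SNORA50 in rat (18.6 to 53.2). In mouse it did so for SNORA17 (49.0 to 63.0), SNORA48 (61.8%, 47.7 to 74.6) and SNORA81 (67.6%, 49.5 to 82.6). The side of these families is not settled by the counts there.

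**Figure D3:**
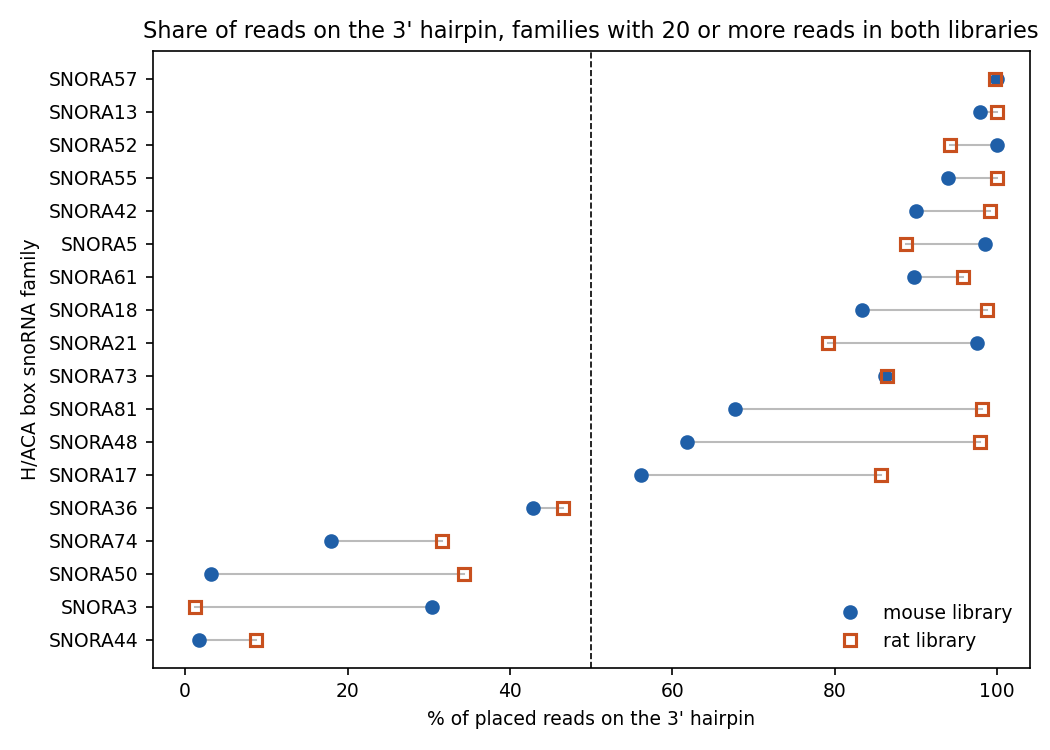
Share of placed reads on the 3′ hairpin, in percent, for the 18 families with at least 20 such reads in both libraries, with a filled circle for mouse and an open square for rat. The dashed line marks 50%; 13 families lie to its right in both libraries and 5 to its left in both.

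Of the families with enough reads in 1 library only, 10 of 11 in mouse and 8 of 14 in rat lay mainly on the 3′ hairpin. In mouse, SNORA16 had 96.4% of 447 reads there, SNORA43 98.1% of 309 and SNORA51 95.6% of 204, whereas SNORA40 had 1.89% of 424. In rat, SNORA64 and SNORA7 had 100% of 150 and of 220, SNORA29 95.6% of 683 and SNORA24 78.7% of 413. On the 5′ hairpin in rat lay SNORA1, with 23.1% of 108 reads on the 3′ side, SNORA54, with 21.4% of 196, SNORA31, with 24.5% of 163, SNORA62, with 26.3% of 228, SNORA33, with 19.4% of 31, and SNORA46, with 40.5% of 74 (29.3 to 52.6). Only 74 of the 143 rat SNORA46 reads were placed. Its leading rat sequence, of 39 nt with 34 reads, was not among them.

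Fragments sat at the ends of the RNA more often in rat than in mouse. Within 2 nt of the 3′ end, where the ACA box lies, ended 29.3% of placed mouse reads and 34.8% of placed rat reads. At the 5′ end began 33.7% in mouse and 56.7% in rat, which came mainly from SNORA44 in mouse (1955 of 2349 such reads) and from SNORA3 and SNORA44 in rat (6191 and 2101 of 9033). Neither end was reached by 37.1% of mouse reads and 8.57% of rat reads. Among the inner mouse reads, SNORA42, SNORA74 and SNORA40 stood out, with 92.4%, 97.5% and 99.1% of their reads at neither end. The 26-nt SNORA42 fragment, with 378 reads, ran from position 54 to 79 and spanned the H box, so its place in the 3′ hairpin rests on its midpoint. The 30-nt SNORA40 fragment, with 157 reads, ran from 11 to 40 within the 5′ hairpin. In rat, the leading SNORA42 fragment, with 181 reads, ended instead at the 3′ end, as did 77.6% of the family's rat reads against 7.56% in mouse. The annotated RNAs differed, with 96.8% of the family's mouse sense reads on Gm26205 and 96.3% of its rat sense reads closest to Gm23127. Over families with 20 placed reads, over 50% of reads ended at the 3′ end in 18 of 30 mouse and 21 of 32 rat families, and began at the 5′ end in 3 and 7.

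**Figure D4:**
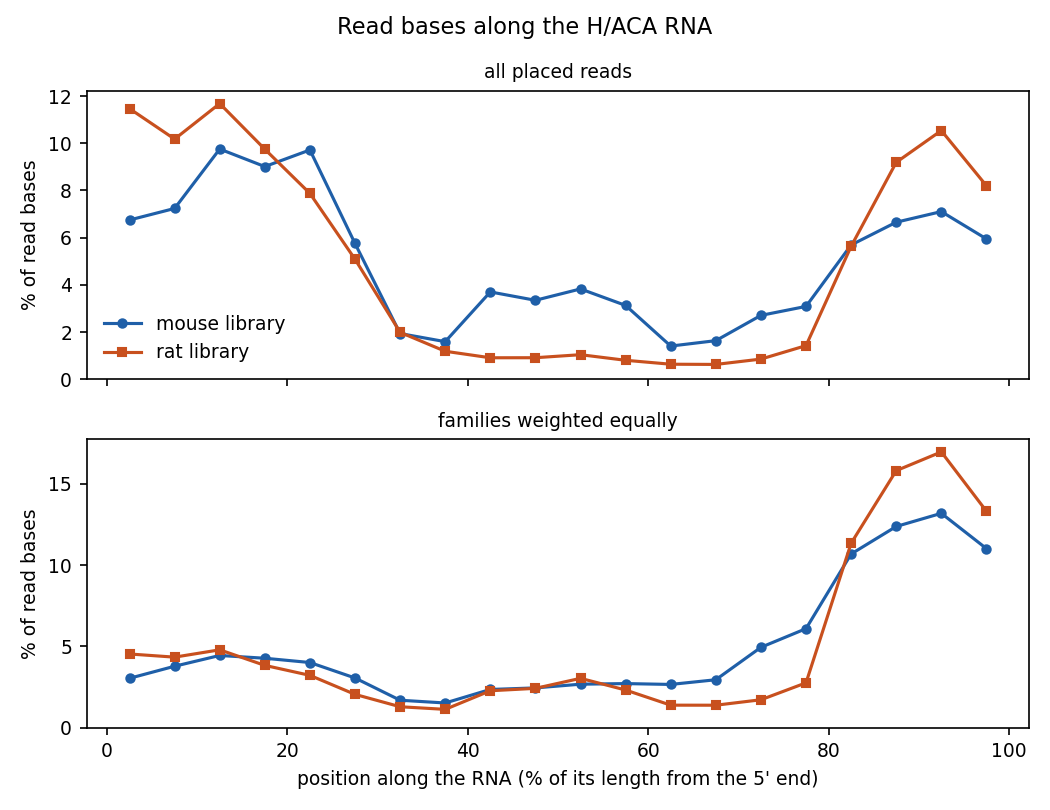
Percent of read bases in each twentieth of the RNA, from the 5′ end (0%) to the 3′ end (100%), for the mouse (circles) and rat (squares) libraries. Over all reads (top) both ends are high; with families weighted equally (bottom) the twentieth before the last holds 13.2% of bases in mouse and 17.0% in rat, and the first holds 3.04% and 4.54%.

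The end of the reads showed the box itself without any placing. Of sense reads, 27.5% in mouse (26.5 to 28.6) and 23.8% in rat (23.1 to 24.4) ended in ACA followed by 3 further bases. Among reads of 20 to 24 nt the shares were 46.7% and 38.6%. C/D reads ended so in 0.811% and 0.178%, all listed reads in 0.418% and 0.191%, and minus-strand reads under SNORA entries in 0.811% and 0.971%. SNORA44, SNORA81 and SNORA40, whose leading mouse RNAs have ATA in place of ACA, are part of the totals behind these shares.

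In the 20 families with at least 20 reads in each library, the most abundant mouse and rat sequences were compared by their distance from the RNA's 3′ end. This distance was the same in 7 families and within 1 nt in 12. The mouse and rat sequences need not lie on the same annotated RNA. They did not in SNORA3, SNORA5, SNORA13, SNORA17, SNORA36, SNORA42, SNORA44, SNORA48, SNORA61, SNORA70 and SNORA73. With a tolerance of 2 nt, the leading sequence lay at the RNA's 3′ end in 11 mouse and 15 rat families, 10 of them in both. SNORA44 is the clearest case on the 5′ side. Its 36-nt fragment, from position 1 to 36, had 1773 reads in mouse, 80.0% of the family, and 1581 in rat, 58.7% of the family. The mouse and rat sequences differ by G2A, C28T, T29C and G30A, counted from the 5′ end with the mouse base first. SNORA57 differs by T25C in its 26-nt fragment, which had 23 mouse and 209 rat reads. SNORA21 and SNORA55 had identical leading sequences, of 23 and 24 nt. The 23-nt SNORA18 fragment led in rat with 305 reads and came second in mouse with 39, behind the 39-nt fragment with 65 reads, which ends at the same base and had 3 reads in rat. The leading sequence changed hairpin in 2 families, each time on few reads in 1 library. SNORA51 led with 149 mouse reads at the 3′ end and 4 rat reads at the 5′ end, and SNORA48 with 5 mouse reads at the 5′ end and 19 rat reads at the 3′ end.
SNORA51 rat, 39 nt: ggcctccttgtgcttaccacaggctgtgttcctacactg
SNORA48 mouse, 29 nt: cacccctggcaatgggcaaagaggcacct
SNORA48 rat, 26 nt: agctgtttcatgcctagggcACAtga
Few exact sequences occurred in both libraries. Of 1169 mouse and 2135 rat distinct sense sequences, 34 were shared, with 3.886% of mouse and 3.003% of rat sense reads.

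Families also differed in how sharply their fragments were cut. SNORA81 in rat was 1 fragment for the most part, with 940 of 1318 reads (71.3%) in the 23-nt sequence and 117 more in the form 1 nt longer at its 5′ end. SNORA64 in rat had 88.1% of its reads in 1 sequence of 24 nt. SNORA3 in rat was cut at many places. Of its placed reads, 98.8% began at the 5′ end, but the sequences of 30, 40, 39 and 41 nt, which all start at position 1, had 892, 735, 656 and 463 reads. SNORA16 in mouse had its reads in 2 near-equal forms, 128 of 25 nt and 126 of 26 nt, both ending at the 3′ end.

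Lengths separated the hairpins and the libraries. The median H/ACA read measured 34 nt in mouse against 30 nt for rat, with the most common length at 36 nt in mouse (25.5% of reads) and 23 nt in rat (11.8%). Lengths of 20 to 24 nt took 14.8% in the mouse library (13.98 to 15.6) and 24.9% in the rat library (24.2 to 25.5). The mouse peak at 36 nt was SNORA44, and without SNORA44 and SNORA3 the shares of 20 to 24 nt were 17.7% and 45.7%. Among reads without mismatch the order of the libraries was not kept, at 17.3% in mouse and 16.6% in rat. C/D reads were longer, with 66.1% of mouse and 29.2% of rat reads over 45 nt, against 8.60% and 12.9% of H/ACA reads. The longest H/ACA reads measured 72 nt (mouse) and 80 nt (rat), past the stated size selection. Over all listed reads the most common lengths were 40 nt (mouse) and 30 nt (rat), and the part of library size selection in these differences was not tested.

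**Figure D5:**
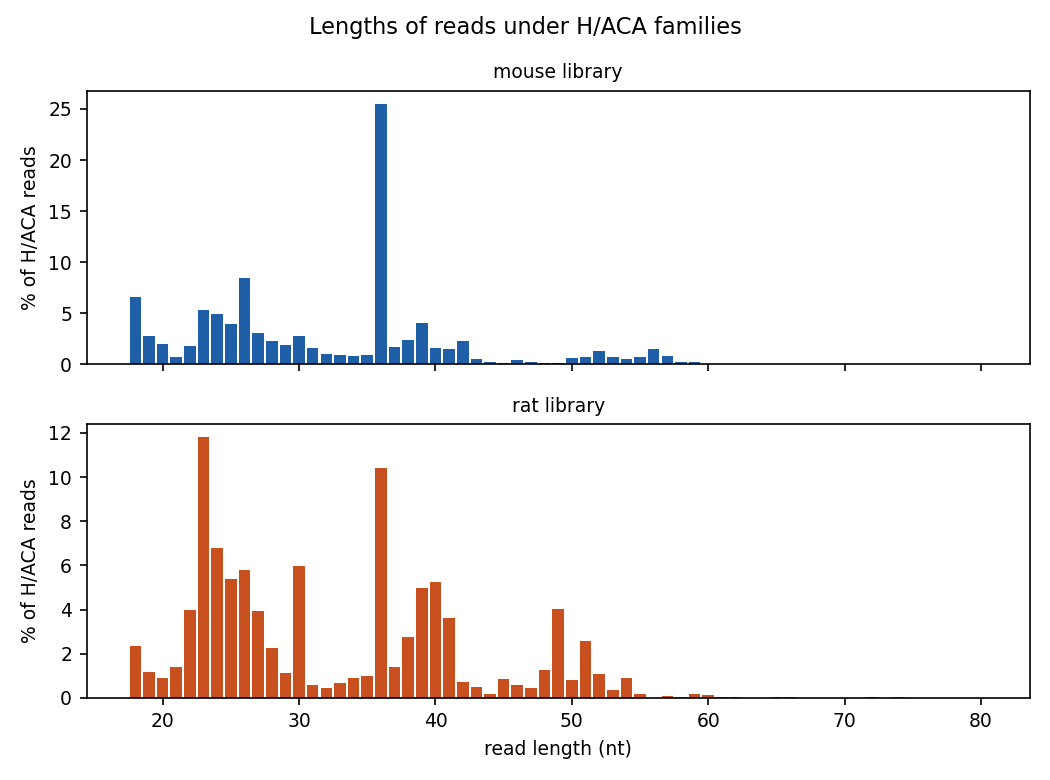
Percent of H/ACA reads at each read length (nt), for the mouse library (top) and the rat library (bottom), with separate vertical scales. The mouse profile has its highest bar at 36 nt (25.5%) and lower peaks at 26 nt (8.42%), 18 nt (6.57%), 23 nt (5.30%) and 39 nt (4.03%), and the rat profile has its highest bar at 23 nt (11.8%) and further bars at 30 and 36 nt.

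Among reads that ended at the 3′ end of the RNA, 55.4% in rat and 26.4% in mouse were 20 to 24 nt long, with the most common length at 23 nt in rat and 39 nt in mouse. Of the families with over 50% of reads at the 3′ end, 11 of 21 in rat and 7 of 18 in mouse had their most common length at 20 to 24 nt. In rat these included SNORA81 and SNORA18 at 23 nt, SNORA64 and SNORA7 at 24 nt, with 74.8%, 55.6%, 90% and 41.8% of placed reads. SNORA29 lay at 25 nt (58.0%), SNORA57 at 26 nt (62.8%), SNORA24 at 27 nt (39.7%), SNORA73 at 42 nt (32.1%) and SNORA13 at 43 nt (27.6%). In mouse, SNORA43 lay at 23 nt (39.8%) and SNORA61 at 23 nt (42.3%), but SNORA51 at 39 nt (73.0%), SNORA18 at 39 nt (26.1%) and SNORA13 at 42 nt (35.1%). Reads that began at the 5′ end were seldom 20 to 24 nt long, 3.79% in mouse and 5.49% in rat. Their most common length was 36 nt in each library, mostly from the leading SNORA44 sequence, with 1773 mouse and 1581 rat reads. SNORA3, which held 6191 of the 9033 such reads in rat, had its most common length there at 30 nt. Over 37 nt lay 12.01% of 5′-end and 40.8% of 3′-end reads in mouse, and 46.8% and 11.4% in rat.

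Messenger RNA fragments of the proteins that bind H/ACA RNAs were counted in mouse, where an annotation was used. Dkc1, the gene of dyskerin, had 574 reads, and the other core proteins had 84 for Gar1, 72 for Nop10 and 6 for Nhp2. The assembly factors Shq1 and Naf1 had 212 and 26 reads. These counts are fragments of the selected size and not levels of the mRNA.

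Markers of the germ line and of other cell types were counted, as mRNA fragments in mouse only and as miRNAs in both libraries. In mouse, the 5 genes of the caput epithelium had from 51.0 (Cst8) to 1188 (Adam7) rpm, and the 6 germ line genes from 0.170 (Akap4) to 26.5 (Tnp2). Summed miRNA markers of the epithelium stood at 131 rpm (mouse) and 257 rpm (rat). Germ line miRNAs (miR-34c and miR-449a) came to 10.7 and 723 rpm. Muscle miRNAs came to 846 and 1854, endothelial miR-126 to 15.99 and 26.96, and leukocyte miRNAs to 0.765 and 17.2, with miR-223 at 0 mouse reads. Their part in the H/ACA differences was not tested.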

How the data were processed

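The authors deposited 1 table per library with whole, unnormalised read counts per distinct sequence, its matched entry, strand and mismatches (at most 2), per the file headers. The submitters' processing notes name Bowtie 0.12.7, mm9 and rn5, with no role. Trimming and total depth are not stated in the sources used here. Counts were summed by Rfam family name and divided by listed reads. Sense reads were aligned with edlib 1.3.9.post1 to GENCODE vM21 snoRNAs of 110 to 260 nt, with up to 2 edits in mouse and up to 15% of the read in rat. The hinge was the ANANNA motif, between 30% and 70% of the RNA, whose flanks folded with the lowest summed energy (RNAfold 2.7.2), and 121 mouse and 1376 rat reads lay on RNAs without one. Intervals, at 95%, are Clopper-Pearson for shares and exact conditional binomial for ratios (scipy 1.17.1). Reads are PCR products without molecular identifiers. A count of 0 was taken at 3. Placing and intervals were tested on simulated data. Named families were the 10 most read per library, the 5 highest and 5 lowest ratios, and those with 100 reads in 1 library and 0 in the other. Members and lists were chosen with earlier results of these data known. Sequences of SNORA13 and SNORA74 are not reported here.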

Additional observations from a re-analysis of the deposited data

Results flagged for a closer look

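Reads with H/ACA sequence were also listed under entries that carry no SNORA name, outside the counts of the families. In mouse there were 1101 such reads, equal to 14.9% of the H/ACA reads, of which 664 were under GenBank records of unknown type and 263 under GenBank snoRNA records. In rat there were 136, equal to 0.813%. SNORA74 had the most of them in mouse, 430 reads, followed by SNORA47 with 115, and SNORA63 the most in rat, with 59.

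Minus-strand reads under SNORA entries came to 370 in mouse, 5.003% of the H/ACA reads, and to 206 in rat, 1.23%. SNORA17, the family with most entries, held 176 of the mouse and 79 of the rat ones. The series has no control sample. For comparison, 243285 of 243301 mouse and 32607 of 32616 rat C/D reads outside SNORD58 lay on the sense strand. The cause of the larger minus-strand share under SNORA entries was not tested.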

How the results depend on the processing

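The H/ACA log2 ratio of rat over mouse, 0.86, stayed above 0 in every alternative run. It was 0.60 over reads without SNORD58 and without the most abundant sequence of each library, 3.29 as a share of snoRNA reads, 1.64 without mismatches, 0.92 on the sense strand, 0.71 at 18 to 45 nt, 1.24 in distinct sequences, 1.11 without the leading sequence of each family, 0.25 without SNORA44 and SNORA3, 0.67 with reads of other entries and 0.88 for placed reads. The last 2 were added after the data were seen, as were SNORA17 and SNORA43 as one family, the hairpin share at 18 to 45 nt and the lengths of placed reads. Families past 2-fold in rat, 15 upward and 9 downward, became 24 and 4 as a share of snoRNA reads, 9 and 5 (of 15 compared) without mismatches, and 3 and 2 (of 8) at a minimum of 500 reads. Those lower became 5 in distinct sequences (of 39 compared, at a minimum of 20 sequences) and 15 (of 43) at a minimum of 20 reads, where 22 and 17 were higher. The 3′ hairpin share in mouse and rat passed 50% in distinct sequences (60.1% and 63.1%), without the leading families (68.3% and 84.3%) and as a median over families (86.2% and 87.6%). It was 36.5% and 38.8% by the middle of the RNA and 34.8% and 26.9% without mismatches, and in mouse 42.5% for reads on 1 side of the hinge. Reads of 20 to 24 nt were 18.1% and 25.7% in distinct sequences, 17.7% and 45.7% without the leading families, and 17.3% and 16.6% without mismatches. Of 166 family ratios recomputed, 12 changed direction, in 6 families. As a share of snoRNA reads, SNORA17 came to 1.83, SNORA42 to 1.20, SNORA44 to 2.39 and SNORA50 to 0.13. Runs without mismatches and in distinct sequences also limited the library total in the same way, which shifts every ratio. Without mismatches SNORA44 came to 0.86 (2155 mouse and 2563 rat reads), SNORA51 to 1.46 and SNORA57 to -2.35. The totals of distinct sequences were 914516 in mouse and 650877 in rat. Over these, SNORA17 came to 0.21 (212 and 174 sequences), SNORA42 to 0.79, SNORA44 to 1.84 and SNORA51 to 0.17 (20 and 16). SNORA44 came to 1.01 without its leading sequence. The causes were not tested. No paired analysis was possible because each species has 1 library and no result comes from a test.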
